A study of Homo sapiens with 4 samples.

Results

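The genes of the mitochondrial ribosomal proteins were examined in Huh1 and Huh7, a pair of established human hepatocellular carcinoma (HCC) cell lines, after knockdown of CDCA8. A gene was a member if its symbol was MRPL or MRPS followed by a number and, in some cases, the letter A, B or C. Of the 18398 rows of the expression tables, 75 met this rule. The proteins of 49 of them belong to the large subunit and those of 25 to the small subunit, and MRPS30 and MRPS18A were counted with the large subunit, where their proteins sit despite the letter S. The protein of MRPS36 is now assigned to the alpha-ketoglutarate dehydrogenase complex and lies outside the ribosome. MRP63, an older symbol of MRPL57, did not match the rule and is given apart.

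Cells of each line were transfected with 15 nM of NCsiRNA (the negative control) or of CDCA8-1siRNA, and RNA was collected after 48 h. Total RNA gave 4 libraries, 1 per line and siRNA, and variation between transfections of a condition could not be measured. Each line is 1 tumor-derived culture, and the siRNA variant, dose and time were taken from the methods of the study, since the labels name only the line and the target. Values are RPKM, read numbers divided by transcript length and by library size. Their steps correspond to 12197606 to 13384836 reads per library. CDCA8, a subunit of the chromosomal passenger complex and the target of the siRNA, had 24.1 RPKM with NCsiRNA and 5.86 RPKM with CDCA8-1siRNA in Huh1, and 51.5 and 7.36 RPKM in Huh7. All 10 hepatocyte lineage markers, among them ALB and HNF4A, were at or above 1 RPKM in every library. Their summed level was 6287 and 5340 RPKM in Huh1 with NCsiRNA and CDCA8-1siRNA and 3472 and 2485 RPKM in Huh7. The markers did not all follow this sum. AFP, TTR and FGB were higher in Huh7 than in Huh1 with either siRNA, and the other markers of the list were lower. With NCsiRNA, AFP had 24.8 RPKM in Huh1 and 865 RPKM in Huh7, whereas ALB had 3447 and 1166 RPKM. All 5 blood cell markers were under 1 RPKM in every library (sums of 0.282 to 1.16 RPKM). Of the 5 stromal and endothelial markers measured, COL1A1 and COL1A2 were present in Huh7 (31.4 to 125 RPKM) and under 0.2 RPKM in Huh1, while PDGFRB and VWF stayed under 1 RPKM and CDH5 was at 0 throughout. The sum of this list was 0.168 and 0.170 RPKM in Huh1 and 139 and 183 RPKM in Huh7. Of 3 neural markers, SYP reached 2.29 and 3.05 RPKM in Huh7 and the others were under 1 RPKM, with sums of 0.367 to 3.15 RPKM. The part of these marker differences in the results on MRP genes was not tested, and in bulk RNA fewer cells of a kind and less RNA per cell cannot be told apart.

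Mitochondria keep a ribosome of their own, which translates the few messages of the mitochondrial genome, all of them for subunits of the oxidative phosphorylation complexes. Its RNAs are made inside the organelle, but all of its proteins are encoded in the nucleus, made in the cytosol and imported. Some of these proteins descend from proteins of the bacterial ribosome, and others were added in the course of mitochondrial evolution. In the list used here, 46 members had a bacterial counterpart and 28 were specific to mitochondria. Hepatocytes are rich in mitochondria, and nuclear genes of mitochondrial proteins are commonly linked to the transcription factors NRF1, GABP (an ETS family factor) and YY1.

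The promoters of the members were compared with those of other genes, using RefSeq windows of 300 bases on GRCh38.p14, from 250 bases before to 50 bases after each transcription start. A window was found for 66 of the 75 members and for 15843 protein-coding genes, of which 7728 passed the expression filter described below. The ETS core CCGGAAG, searched on both strands like every motif here, was present in 27 of 66 member windows (40.9%), in 20.7% of windows of expressed genes and in 14.0% of all windows. The YY1 core AAGATGG, which contains ATG and can therefore also lie over a start codon, was present in 23 member windows (34.8%), against 8.32% of expressed genes and 6.36% of all. The NRF1 motif was present in 5 member windows (7.58%), against 12.3% of expressed genes and 8.22% of all. An E-box, CACGTG, was present in 9 of 66 member windows and 776 of 7728 windows of expressed genes, and TATAAA in 3.03% and 5.76%. At least 1 of the NRF1, ETS and YY1 motifs was present in 65.2% of member windows, against 35.8% of expressed genes and 25.2% of all. The shares describe letters in these windows and not bound factors, and an ETS core can run into a YY1 core through the letters AAG.

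The promoters of 4 members are shown because the results below turn on these genes. MRPL20 and MRPL16 were the members called lower after CDCA8 siRNA, at an adjusted p under 0.05 in limma. MRPL40 was the member with the largest excess in Huh7, and MRPS34 was the one with the largest excess in Huh1. Each run holds 150 bases before and 30 bases after the transcription start on the strand of the gene, 5′ to 3′, with matches to the ETS core (CCGGAAG, or CTTCCGG on the other strand) and the YY1 core in capitals. The windows are chr1:1407264-1407443 (minus strand) for MRPL20, chr11:59810749-59810928 (minus strand) for MRPL16, chr22:19432395-19432574 (plus strand) for MRPL40 and chr16:1773105-1773284 (minus strand) for MRPS34, all on GRCh38.p14.
MRPL20: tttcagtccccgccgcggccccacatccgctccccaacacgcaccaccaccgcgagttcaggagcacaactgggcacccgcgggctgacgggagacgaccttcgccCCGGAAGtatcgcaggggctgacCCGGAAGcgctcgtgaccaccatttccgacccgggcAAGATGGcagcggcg
MRPL16: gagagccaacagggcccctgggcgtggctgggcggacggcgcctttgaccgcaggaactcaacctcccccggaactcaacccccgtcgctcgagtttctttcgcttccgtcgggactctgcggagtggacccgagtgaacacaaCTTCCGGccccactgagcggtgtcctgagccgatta
MRPL40: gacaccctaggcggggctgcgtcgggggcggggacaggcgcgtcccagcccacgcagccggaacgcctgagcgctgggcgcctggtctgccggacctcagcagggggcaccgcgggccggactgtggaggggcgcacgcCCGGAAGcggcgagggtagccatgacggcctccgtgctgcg
MRPS34: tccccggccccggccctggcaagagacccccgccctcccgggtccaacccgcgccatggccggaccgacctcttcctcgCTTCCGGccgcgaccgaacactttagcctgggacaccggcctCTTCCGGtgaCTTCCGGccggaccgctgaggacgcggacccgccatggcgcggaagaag

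The MRPL20 window held 2 ETS matches and 1 YY1 match, the MRPS34 window 3 ETS matches, and the windows of MRPL16 and MRPL40 1 ETS match each. Many members also started close to a gene read in the opposite direction. A start on the other strand within 1000 bases upstream was found for 19 of 66 members (28.8%), against 13.7% of expressed genes and 9.62% of all. MRPL46 and MRPS11 were each other's partner, with 320 bases between their starts.

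The level of the MRP genes was high compared with most genes and similar between libraries. The median over the 75 members was 42.0 RPKM in Huh1 with NCsiRNA, 43.9 in Huh1 with CDCA8-1siRNA, 38.0 in Huh7 with NCsiRNA and 34.5 in Huh7 with CDCA8-1siRNA, while the median of all genes that passed the filter was 12.6, 12.9, 13.7 and 13.9 RPKM. Summed over the members, the level was 3759, 3722, 3383 and 3152 RPKM in the same order. This was 0.8099%, 0.8192%, 0.7999% and 0.7566% of all RPKM, so the lowest share was in Huh7 with CDCA8-1siRNA. The genes of the cytosolic ribosomal proteins made up 14.2% to 15.8% in the same libraries.

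MRPL51, a mitochondria-specific protein of the large subunit, had the highest level on this scale per length, with 185 and 181 RPKM in Huh1 and 183 and 172 RPKM in Huh7 (NCsiRNA first in each pair, as below). MRPS15, a small subunit protein with a bacterial counterpart, was at 112 and 121 RPKM in Huh1 and 75.5 and 78.3 RPKM in Huh7. MRPL37, specific to mitochondria, was at 114 and 106 RPKM in Huh1 and 79.6 and 75.0 RPKM in Huh7. These 2 genes were thus close to each other in all 4 libraries and lower in Huh7. MRPS24, a small subunit protein, had 106 and 101 RPKM in Huh1 and 72.9 and 65.8 RPKM in Huh7. MRPL40 was also among the 5 highest by mean, but its place came from Huh7 alone, as described below.

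At the low end, MRPS14, the counterpart of a bacterial small subunit protein, was at 7.31 and 7.42 RPKM in Huh1 and at 8.45 and 8.40 RPKM in Huh7. MRPL19 was at 14.1 and 14.5 RPKM in Huh1 and at 10.2 and 8.76 RPKM in Huh7. MRPL22, whose bacterial counterpart lines the exit tunnel, was at 16.2 and 15.8 RPKM in Huh1 and at 9.84 and 9.41 RPKM in Huh7. MRPL19 and MRPL22 were therefore the lower ones in Huh7, whereas the reverse held for the next pair. MRPL35 was at 11.6 and 12.3 RPKM in Huh1 and at 17.1 and 18.1 RPKM in Huh7, and MRPS31, specific to mitochondria, was at 12.1 and 10.8 RPKM in Huh1 and at 22.8 and 21.1 RPKM in Huh7. Within Huh1 with NCsiRNA the members thus ranged from 7.31 to 185 RPKM. MRP63 was at 7.94 and 7.84 RPKM in Huh1 and at 9.77 and 10.9 RPKM in Huh7, at the level of the lowest members.

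**Figure D1:**
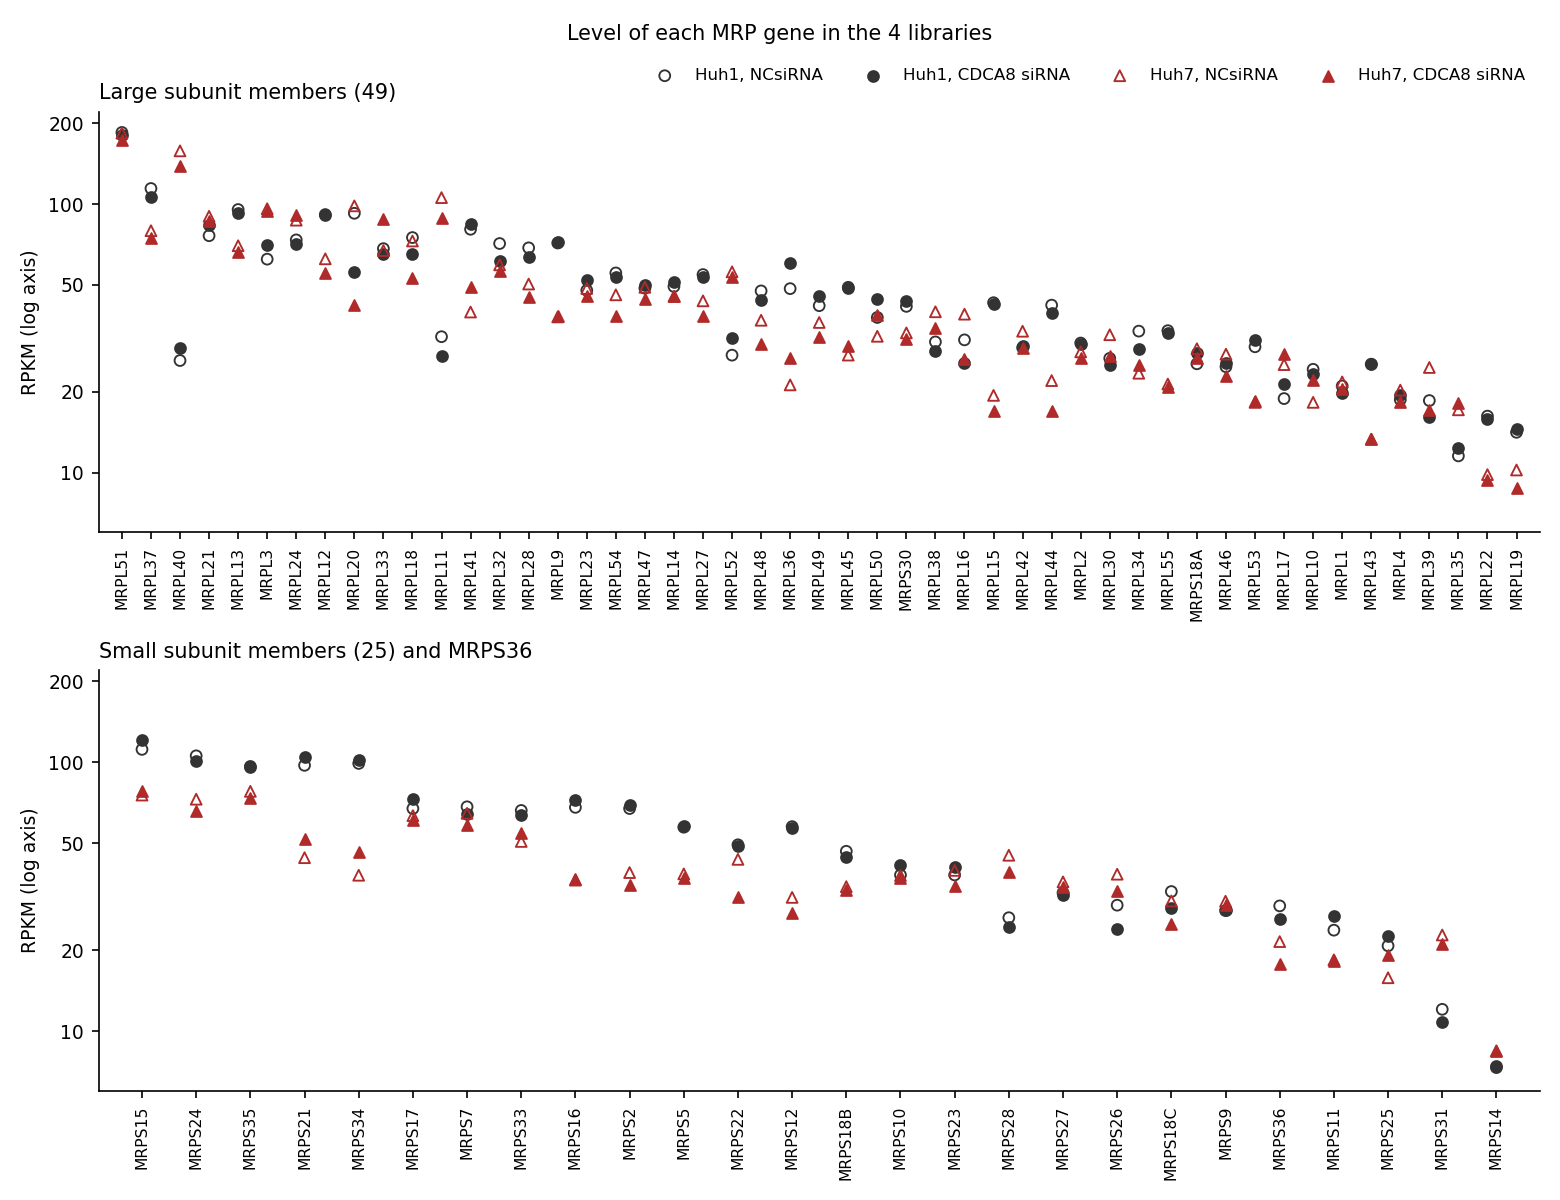
RPKM (log axis) of each of the 75 MRP genes in the 4 libraries, with large subunit genes above and small subunit genes with MRPS36 below, ordered by mean level. Open symbols are NCsiRNA and filled symbols CDCA8 siRNA, circles are Huh1 and triangles Huh7, with 1 library per symbol. For most genes the symbols of a line lie together and apart from those of the other line, and MRPL20 is the large exception, with filled symbols at 55.8 and 42.2 RPKM under open ones at 92.3 and 98.4 RPKM.

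The order of the members by level was kept by the siRNA more closely than between the lines. Across the 75 genes, Spearman's rho was 0.975 between the 2 Huh1 libraries and 0.952 between the 2 Huh7 libraries, and 0.712 to 0.774 between libraries of different lines. They describe genes within libraries, so the points share library preparation and transcript length and are no replicates.

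The first comparison asked how the MRP genes differed between CDCA8-1siRNA and NCsiRNA. Both treated libraries had the same siRNA variant, so an effect of its sequence was not tested apart from the loss of CDCA8. Differences were taken as log2(RPKM + 1) of CDCA8-1siRNA minus NCsiRNA. The added 1 RPKM makes a change smaller than the plain ratio, slightly so for most members and clearly so for genes near 1 RPKM. Over both lines, limma was fitted to the 10357 genes that reached 1 RPKM in 1 or more libraries of each line, all 75 members among them, with the cell line as a covariate. Its p-value measures whether both lines changed alike and not the spread between transfections. MRPL20 and MRPL16 fell, and no other member had an adjusted p under 0.05. Members called lower were thus 2 of 75, where 4.21% of all genes tested were called lower, and members called higher were 0 of 75, where 6.03% of all genes were called higher. At an unadjusted p under 0.05 there were 9 members, 2 higher and 7 lower, against 2694 of the 10357 genes. The median of the siRNA coefficient was -0.05 for members and 0.03 for all genes.

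MRPL20, whose bacterial counterpart binds ribosomal RNA early in the assembly of the large subunit, stood apart from the other members. It had 92.3 RPKM with NCsiRNA and 55.8 RPKM with CDCA8-1siRNA in Huh1, and 98.4 RPKM with NCsiRNA and 42.2 RPKM with CDCA8-1siRNA in Huh7. Both treated libraries lay below both controls. The log2 fold change was -0.72 in Huh1 and -1.20 in Huh7, where sampling of reads alone gives SDs of 0.0779 and 0.0877. The limma coefficient was -0.96 (SE 0.117, adjusted p = 0.00244), the 31st lowest of the 10357 genes. The adjusted p was 0.252 without the filter on low genes and 1.00 without the cell line covariate, settings under which limma called 0 of all genes for the siRNA. Under the other 6 alternatives it was at most 0.0157.

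MRPL16, the counterpart of a bacterial protein near the tRNA sites of the large subunit, had 31.2 and 25.7 RPKM in Huh1 and 38.9 and 26.5 RPKM in Huh7. Both treated libraries were again below both controls, by a smaller amount. Its log2 fold change was -0.27 in Huh1 and -0.54 in Huh7, with sampling SDs of 0.0936 and 0.0925. The limma coefficient was -0.40 (SE 0.103, adjusted p = 0.0392), and the adjusted p was 0.0744 without the mean-variance trend, 0.282 without the filter and 1.00 without the covariate, and 0.0145 to 0.0417 under the other 5 alternatives.

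The following members had the next largest coefficients, and none of them passed the adjusted threshold. MRPL39, a mitochondria-specific protein, had 18.6 and 16.1 RPKM in Huh1 and 24.6 and 17.2 RPKM in Huh7, with a coefficient of -0.34 (SE 0.110, adjusted p = 0.0823 in limma). MRPL18, a large subunit protein with a bacterial counterpart, had 75.0 and 64.9 RPKM in Huh1 and 72.8 and 53.2 RPKM in Huh7, with a coefficient of -0.33 (SE 0.0937, adjusted p = 0.0581 in limma). For both genes the treated library was the lower one in each line. MRPL18 passed the threshold after quantile normalization, upper quartile scaling, median centring and a minimum of 5 RPKM (adjusted p 0.0441 to 0.0494), and MRPL39 after quantile normalization (0.0419). Under the alternatives that did not pass, the adjusted p of both reached 1.00.

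MRPL36 and MRPL50 had the largest positive coefficients among the members. MRPL36, the counterpart of a very small bacterial protein, had 48.4 and 60.4 RPKM in Huh1 and 21.2 and 26.7 RPKM in Huh7, with a coefficient of 0.32 (SE 0.0911, adjusted p = 0.0597 in limma). About 158 to 486 reads stood behind each of these values, and the adjusted p ran from 0.0486 with a minimum of 5 RPKM, the only alternative past the threshold, to 1.00 without the covariate. MRPL50, specific to mitochondria, had 37.8 and 44.5 RPKM in Huh1 and 32.2 and 38.6 RPKM in Huh7, with a coefficient of 0.24 (adjusted p = 0.128 in limma). The treated library was the higher one in both lines for each gene.

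The rest of the 10 largest coefficients belonged to MRPS26 (-0.24), MRPL11 (-0.24), MRPS18C (-0.24) and MRPS22 (-0.23), with adjusted p-values of 0.118 to 0.245 in limma. MRPS22, a mitochondria-specific small subunit protein linked to inherited mitochondrial disease, had 49.3 and 49.0 RPKM in Huh1 and 43.5 and 31.7 RPKM in Huh7, so that nearly the whole difference lay in Huh7. MRPS26 had 29.4 and 24.0 RPKM in Huh1 and 38.3 and 33.3 RPKM in Huh7, and was lower with CDCA8-1siRNA in each line.

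MRPS18A, MRPS18B and MRPS18C are related to each other, and MRPS18B was counted here as specific to mitochondria and the others as having a bacterial counterpart. MRPS18C had 33.1 and 28.7 RPKM in Huh1 and 30.5 and 24.9 RPKM in Huh7. MRPS18B had 46.7 and 44.5 RPKM in Huh1 and 34.5 and 33.5 RPKM in Huh7, with a coefficient of -0.05. MRPS18A had 25.4 and 28.0 RPKM in Huh1 and 28.9 and 26.7 RPKM in Huh7, with a coefficient of 0.01 that turned negative after median centring (-0.02) and quantile normalization (-0.01). None of these genes passed the test, and only for MRPS18C did both treated libraries lie below both controls.

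Within a single line there is 1 library against 1, with no test. In Huh1 the median log2 fold change of the members was -0.01, against 0.02 for all 10940 genes of that line, and 41 members were lower and 34 higher than with NCsiRNA (54.7% lower, against 44.9% of all genes). On the RPKM + 1 scale, 0 members were at least 25% higher and 1 (MRPL20) was at least 20% lower, where 11.0% of all genes were higher and 6.73% lower by as much. At 2-fold, 0 members were lower, where 0.174% of all genes were. The SD of the fold changes was 0.146 over members and 0.261 over all genes.

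In Huh7 the median was -0.08, against 0.03 for all 11565 genes. Of the members 56 were lower and 19 higher than with NCsiRNA (74.7% lower, against 45.5% of all genes). At the same thresholds, 6 members were lower (MRPL20, MRPL16, MRPL39, MRPL18, MRPS22 and MRPL44), where 11.3% of all genes were lower, and 1 was higher (MRPL33), where 17.0% of all genes were higher. At 2-fold, 1 member was lower (MRPL20), where 0.700% of all genes were. MRPL44, a mitochondria-specific protein of the large subunit with a fold like that of an RNase, had 22.03 and 17.0 RPKM in Huh7 and 42.0 and 39.3 RPKM in Huh1. The SD of the fold changes was 0.225 over members and 0.347 over all genes.

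The counting error of the libraries gives the scale of these differences. A member had about 122 to 6390 reads in a library, with a median of 685, and the sampling SD of its log2 fold change had a median of 0.0725 in Huh1 and 0.0808 in Huh7. The fold change was over 2 sampling SDs for 21 members (28.0%) in Huh1 and 32 (42.7%) in Huh7, and for 43.5% and 54.0% of the 10042 tested genes with a known length. Sampling SDs cover counting only, and read numbers are approximate because the transcript lengths were taken from another annotation than that of the values.

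Taking the lines together, 34 members (45.3%) were lower with CDCA8-1siRNA in both, 12 (16.0%) were higher in both and 29 (38.7%) went in opposite directions. Over all 10357 genes these shares were 30.5%, 39.0% and 30.6%. Of the 29, 22 were lower in Huh7 and 7 lower in Huh1. MRPL33, a small protein with a bacterial counterpart, had the widest gap, with 68.2 and 64.97 RPKM in Huh1 and 67.1 and 88.0 RPKM in Huh7. MRPL10, a protein of the stalk, had 24.3 and 23.4 RPKM in Huh1 and 18.3 and 22.05 RPKM in Huh7. MRPL34, with a bacterial counterpart, had 33.7 and 28.8 RPKM in Huh1 and 23.5 and 25.2 RPKM in Huh7. MRPL40 and MRPL46, both specific to mitochondria, went the other way, with MRPL46 at 24.8 and 25.6 RPKM in Huh1 and at 27.6 and 22.9 RPKM in Huh7. With 1 library per condition, these differences between the lines could not be tested. For MRPL33, MRPL10, MRPL34 and MRPL46 the change in 1 line was smaller than its sampling SD.

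**Figure D2:**
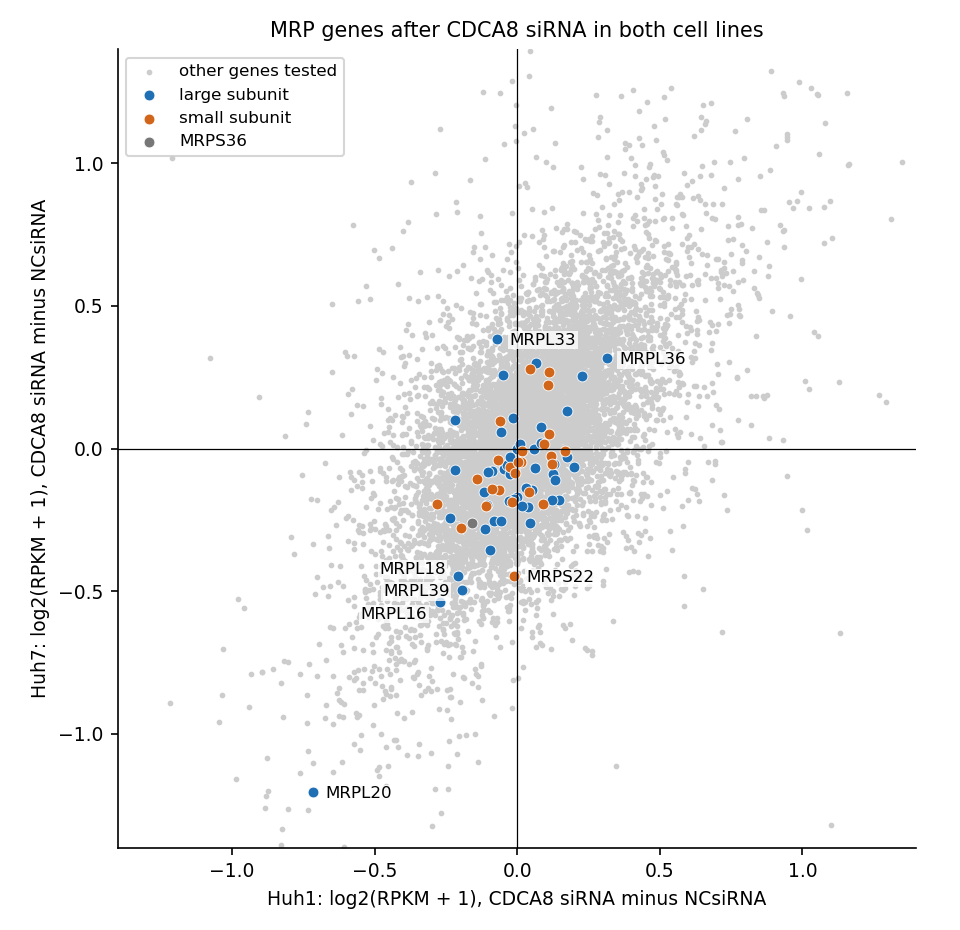
Difference of log2(RPKM + 1), CDCA8 siRNA minus NCsiRNA, in Huh1 (horizontal) and Huh7 (vertical) for the 75 MRP genes in colour by subunit and for the other genes tested in grey, with 36 genes beyond the axes. Each point is 1 gene with 1 library per condition. MRPL20 lies at -0.72 and -1.20, far from the other members, most of which lie close to 0 in Huh1 and below 0 in Huh7.

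Divided by subunit, the 2 called genes were both of the 49 in the large subunit, and 0 of the 25 in the small subunit were called. At an unadjusted p under 0.05 in limma there were 7 large and 2 small subunit genes. Over all genes tested, 4.21% were called lower, 6.03% higher and 26.0% had an unadjusted p under 0.05. The 2 called genes are too few to be read by subunit or origin. The median log2 fold change was -0.01 for large and 0.00 for small subunit genes in Huh1, and -0.08 and -0.05 in Huh7. Of the small subunit genes, 19 of 25 (76.0%) were lower in Huh7, beside 36 of 49 (73.5%) of the large subunit genes. By origin, the medians in Huh7 were -0.07 for the 46 genes with a bacterial counterpart and -0.09 for the 28 specific to mitochondria. MRPL20 and MRPL16 both have a bacterial counterpart, as do most members. The subunits and the origins were not tested against each other.

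The genes that serve the mitochondrial ribosome were taken from lists of known factors. Of 6 proteins of the ribosome that carry no MRP symbol, 0 were called in either direction, and the largest coefficients were those of GADD45GIP1, a large subunit protein (0.17, adjusted p = 0.270 in limma) and ICT1 (0.13), a hydrolase that frees stalled ribosomes. DAP3, a GTP-binding protein of the small subunit, had 87.6 and 91.7 RPKM in Huh1 and 91.1 and 95.4 RPKM in Huh7. Of 24 assembly factors, 0 were called in either direction. MRM1, a methyltransferase of mitochondrial ribosomal RNA, had 4.97 and 6.74 RPKM in Huh1 and 1.70 and 2.98 RPKM in Huh7. Its coefficient was 0.47 (adjusted p = 0.0520 in limma). YBEY, an RNA nuclease, followed with 0.30 (adjusted p = 0.286 in limma). Nearly all of this came from Huh7, where the log2 fold change of YBEY was 0.59, beside 0.01 in Huh1. In Huh7 YBEY had 0.902 and 1.86 RPKM, and it reached the 1 RPKM of the filter there only with CDCA8-1siRNA. Of 16 translation factors 0 were called, with TACO1 (-0.21), a translational activator, and MTFMT (0.21), which formylates the initiator, at the ends. Of 8 genes of mitochondrial transcription 0 were called, the largest values being those of PPRC1 (0.14), a coactivator, and MTERF (0.12), a termination factor. Of 8 regulators of mitochondrial biogenesis that passed the filter 0 were called. The largest values were those of MAX (0.30, adjusted p = 0.0937 in limma), the partner of MYC, and NRF1 (-0.26), named above. PPARGC1A, of the same list, did not pass the filter and was not tested. It had 0.0485 and 0.0660 RPKM in Huh1 and 0.714 and 1.64 RPKM in Huh7. At an unadjusted p under 0.05, there were 0, 3, 0, 0 and 2 genes in these lists, in the order given, where 26.0% of all genes tested were under it. None of these short lists held a called gene, where 6.03% of all genes were called higher and 4.21% lower.

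A pair of larger families gave a frame for the members. Beside the 6.03% of all genes called higher and the 4.21% called lower, of 76 cytosolic ribosomal protein genes tested 1 was called higher (RPL26L1, a close copy of RPL26, whose reads may be shared with it) and 2 lower (RPL10 and RPS16). Their median was -0.06 in Huh1 and -0.08 in Huh7, where 76.6% and 75.0% of the genes were lower with CDCA8-1siRNA. Of 77 nuclear-encoded subunits of the oxidative phosphorylation complexes, the complexes that the mitochondrial ribosome helps to build, 0 were called higher and 4 (5.19%) lower, close to the share of all genes for lower calls. ATP5C1, a subunit of ATP synthase, had 203 and 151 RPKM in Huh1 and 245 and 120 RPKM in Huh7 (coefficient -0.72, adjusted p = 0.00945 in limma). NDUFS4, a subunit of complex I, had 52.1 and 38.9 RPKM in Huh1 and 29.3 and 16.3 RPKM in Huh7 (coefficient -0.61, adjusted p = 0.0129 in limma). The others were SDHD (-0.48), of complex II, and ATP5A1 (-0.43), of ATP synthase. The median of the oxidative phosphorylation subunits was -0.02 in Huh1 and -0.04 in Huh7, and 63.6% were lower in Huh7. More genes lower than higher in Huh7 was thus a feature that the MRP genes shared with both families.

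**Figure D3:**
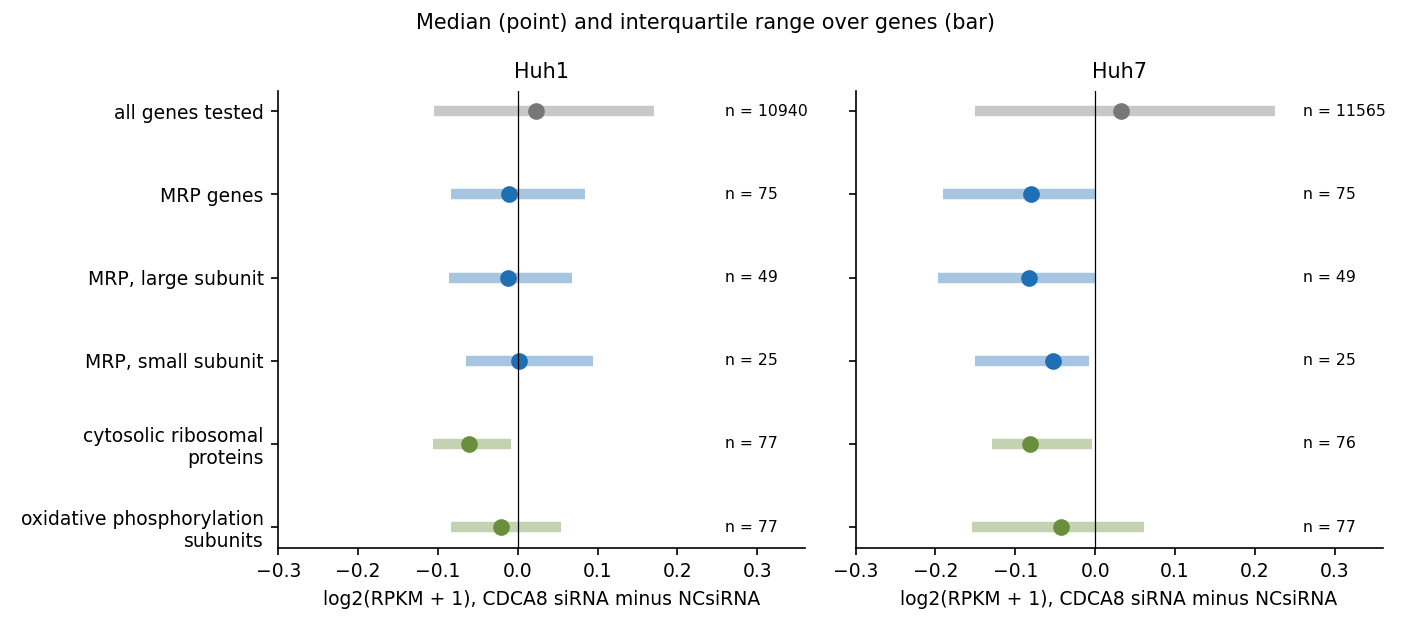
Median (point) and interquartile range (bar) of the log2(RPKM + 1) differences, CDCA8 siRNA minus NCsiRNA, for all genes tested, the MRP genes and their subunits, cytosolic ribosomal protein genes and oxidative phosphorylation subunits, in Huh1 and Huh7, with the number of genes as n. The bars show the spread over genes, not over samples, and in Huh7 the MRP genes have a median of -0.08 beside 0.03 for all genes.

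The second comparison set Huh7 against Huh1 over both siRNAs, using the cell line coefficient of the same limma fit. Its p-value asks whether the lines differ by more than the siRNA response varied between them, and a difference between the lines cannot be told apart from one between the cultures and libraries, of which there was 1 per condition. The MRP genes were lower in Huh7 more often than higher. Of the 75 members 36 were called lower in Huh7, where 28.7% of all genes were, and 11 were called higher, where 39.1% of all genes were, while 28 were not called. The median coefficient was -0.21 for members and 0.10 for all genes. Scalings that bring the median of all genes close to 0 moved it by as much as 0.11 and the members with it. The distance of the members from all genes was -0.29 to -0.32 under these scalings. It was -0.26 without the filter and -0.32 with a pseudocount of 0.1 RPKM.

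Both subunits showed the same lean. Of the 49 large subunit genes 8 were called higher and 21 lower in Huh7, with a median of -0.16. Of the 25 small subunit genes 3 were called higher and 14 lower, with a median of -0.30. Beside these counts, 39.1% of all genes tested were called higher in Huh7 and 28.7% lower. MRPS36 was also lower (29.2 and 26.1 RPKM in Huh1, 21.5 and 17.8 RPKM in Huh7). Of the 76 cytosolic ribosomal protein genes tested, 17 were called higher and 42 lower in Huh7 (median -0.23). Of the 77 oxidative phosphorylation subunits tested, 15 were called higher and 44 lower (median -0.31). The lower values in Huh7 were therefore also seen in these families.

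MRPL40, a mitochondria-specific protein of the large subunit, differed most. It had 26.2 and 29.1 RPKM in Huh1 and 158 and 139 RPKM in Huh7. Its level in Huh7 was 6.03-fold that in Huh1 with NCsiRNA and 4.78-fold with CDCA8-1siRNA, and the coefficient was 2.38 (SE 0.101, adjusted p = 7.26e-08 in limma). MRPL11, whose bacterial counterpart forms the base of the stalk where translation factors bind, had 32.1 and 27.1 RPKM in Huh1 and 106 and 89.1 RPKM in Huh7 (coefficient 1.68, SE 0.0870, adjusted p = 2.62e-07 in limma). The libraries of the lines were far apart for both genes, and the next members in this direction, MRPS31 and MRPL52, had coefficients of 0.88 and 0.87.

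In the other direction the differences were smaller and spread over more genes. MRPS34, a mitochondria-specific protein that stabilizes the small subunit, had 99.1 and 102 RPKM in Huh1 and 38.0 and 46.4 RPKM in Huh7 (coefficient -1.24, SE 0.0935, adjusted p = 2.75e-06 in limma). MRPL15, a large subunit protein with a bacterial counterpart, had 42.9 and 42.6 RPKM in Huh1 and 19.4 and 17.0 RPKM in Huh7 (coefficient -1.19). For both genes the Huh7 libraries lay below the Huh1 libraries. MRPL36 followed with -1.15. MRPS21, a small subunit protein with a bacterial counterpart, had 97.5 and 105 RPKM in Huh1 and 44.2 and 51.7 RPKM in Huh7 (coefficient -1.07). MRPL44 had a coefficient of -1.03. MRPS12, whose bacterial counterpart sits at the decoding centre, had 57.6 and 56.9 RPKM in Huh1 and 31.4 and 27.5 RPKM in Huh7 (coefficient -0.94). Each of these was called lower in Huh7 in limma, with adjusted p-values of 1.76e-05 or less.

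MRPL51, the member with the highest level, was not called between the lines (coefficient -0.04, SE 0.0764, adjusted p = 0.651 in limma), and the sign turned after quantile normalization (0.04). MRPL20 had a coefficient of -0.15 (SE 0.117, adjusted p = 0.267 in limma) and MRPL16 one of 0.17 (SE 0.103, adjusted p = 0.157 in limma). The 2 members called with the siRNA were thus not called between the lines. The same held for 28 of the 75 members and 3341 of the 10357 genes tested.

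**Figure D4:**
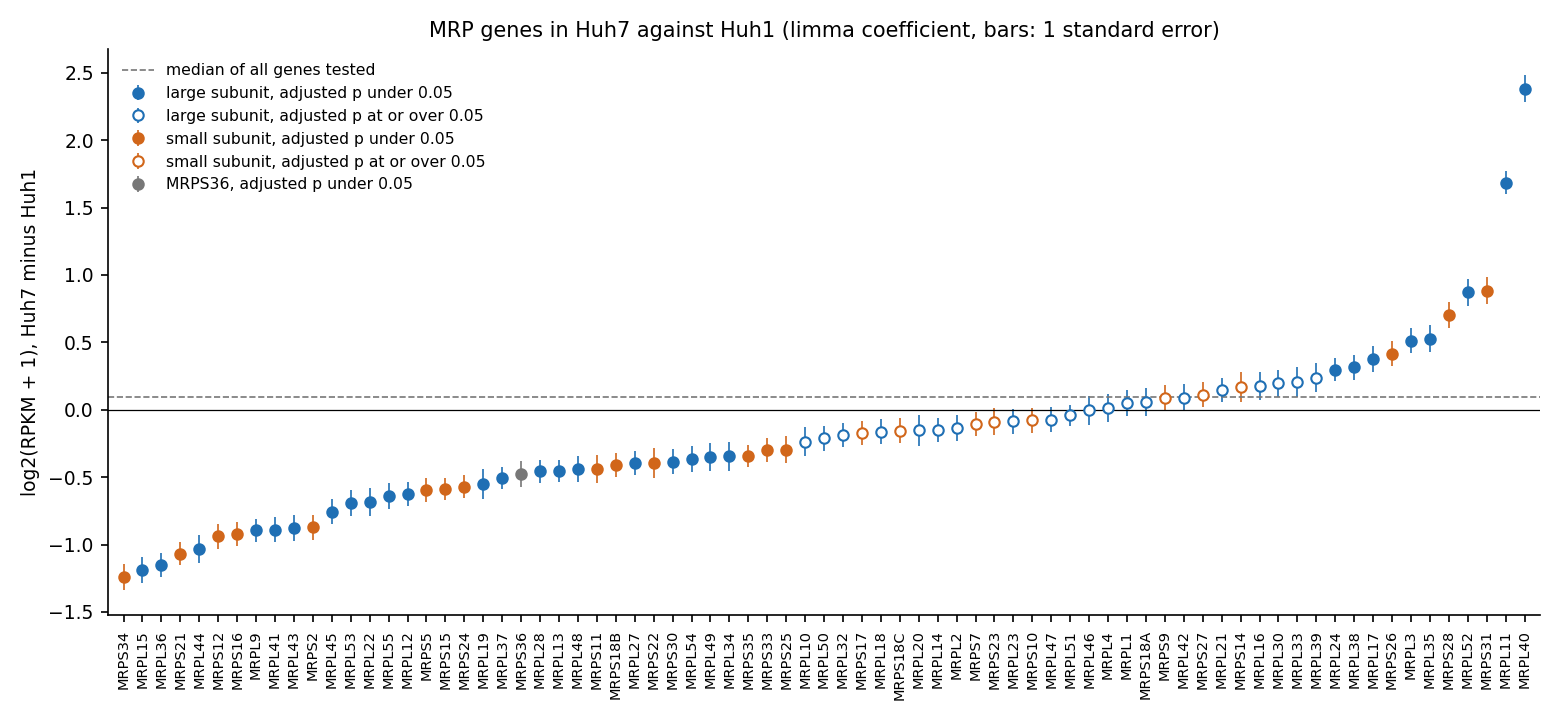
Cell line coefficient of limma, Huh7 minus Huh1 on the log2(RPKM + 1) scale, for each of the 75 MRP genes from lowest to highest, with bars of 1 standard error. Filled points have an adjusted p under 0.05, colours give the subunit and the dashed line is the median of all genes tested (0.10). MRPL40 at 2.38 and MRPL11 at 1.68 stand above a row of members that starts at -1.24 with MRPS34.

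The genes beside the members with the largest differences were then listed, 3 tested protein-coding genes on each side in the order of the RefSeq annotation, a step chosen after the values were seen. All 6 neighbours of MRPL40 were called higher in Huh7, where 39.1% of all genes tested were, with coefficients of 1.67 to 2.29. HIRA, a histone chaperone that starts 812 bases from MRPL40 on the other strand, had 18.2 and 18.5 RPKM in Huh1 and 73.9 and 73.5 RPKM in Huh7. UFD1L, a protein of the degradation machinery, had 39.4 and 37.9 RPKM in Huh1 and 198 and 189 RPKM in Huh7. The excess of MRPL40 in Huh7 was therefore shared by the genes around it.

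Around MRPL11 the pattern was mixed. DPP3, a peptidase, had 21.0 and 20.8 RPKM in Huh1 and 113 and 117 RPKM in Huh7 (coefficient 2.41), and BBS1, B3GNT1 and BRMS1 had coefficients of 2.13, 1.65 and 1.20. SLC29A2 and PELI3, the genes next to MRPL11, had 0.26 and 0.20 and were not called. All 6 neighbours of MRPS34 were lower in Huh7, with coefficients of -0.56 to -1.83, among them NME3 with 16.5 and 12.7 RPKM in Huh1 and 6.87 and 6.19 RPKM in Huh7. Only MRPL40 and MRPS34 had all 6 neighbours called in their own direction. Over all genes tested, 39.1% were called higher in Huh7 and 28.7% lower. The counts of neighbours were not tested against these shares. Beside the other members lower in Huh7, the neighbours called lower and higher were 4 and 1 for MRPL15, 3 and 2 for MRPL36, 3 and 2 for MRPS21, 4 and 1 for MRPL44 and 0 and 3 for MRPS12. Among the last, SARS2, the mitochondrial seryl-tRNA synthetase gene that starts 181 bases away on the other strand from MRPS12, was higher (10.7 and 10.03 RPKM in Huh1, 16.4 and 15.2 RPKM in Huh7, coefficient 0.56, adjusted p = 0.000919 in limma).

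**Figure D5:**
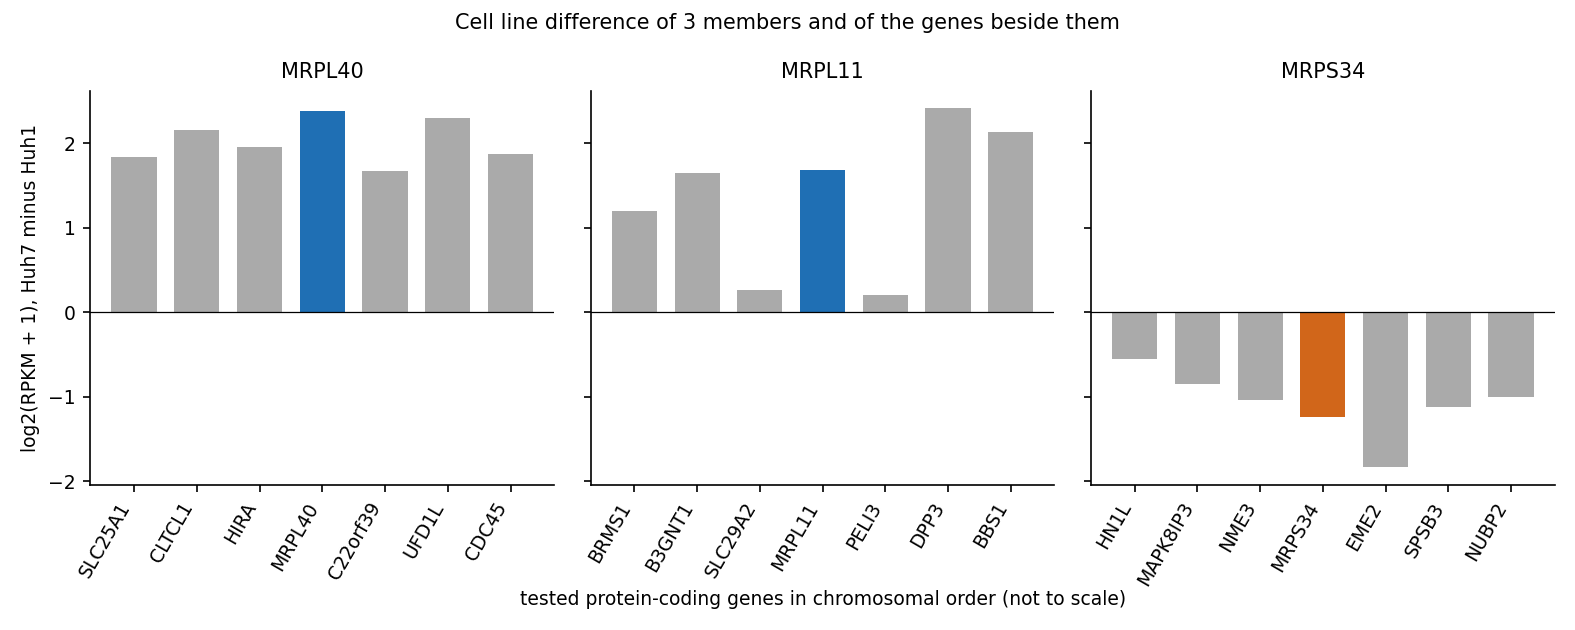
Cell line coefficient, Huh7 minus Huh1 on the log2(RPKM + 1) scale, of MRPL40, MRPL11 and MRPS34 (coloured bars) and of the 3 tested protein-coding genes on each side (grey bars), in chromosomal order and not to scale. All bars around MRPL40 lie above 1.6 and all around MRPS34 below 0, and the genes next to MRPL11 are near 0.

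The same listing was made for the members called lower after the siRNA. Of the 6 genes beside MRPL20, only ATAD3B was called with the siRNA, in the upward direction (18.5 and 23.6 RPKM in Huh1, 22.1 and 28.9 RPKM in Huh7, coefficient 0.35, adjusted p = 0.0484 in limma). CCNL2, the gene next to MRPL20 on the other side, had a coefficient of 0.10, and AURKAIP1, itself a mitochondrial ribosomal protein, had 55.2 and 56.0 RPKM in Huh1 and 64.4 and 59.6 RPKM in Huh7 (coefficient -0.04). Beside MRPL16, STX3, a syntaxin of membrane fusion, rose (17.99 and 28.98 RPKM in Huh1, 16.2 and 36.8 RPKM in Huh7, coefficient 0.90, adjusted p = 0.00405 in limma), and the other 5 genes were not called. None of the neighbours of MRPL20 and MRPL16 was called lower, where 4.21% of all genes tested were called lower and 6.03% higher. The neighbours are too few to be read against these shares. Of the 17 pairs of opposed starts in which both genes were tested, 10 had siRNA coefficients of the same sign and 10 cell line coefficients of the same sign. MRPL40 and HIRA were both higher in Huh7, whereas MRPL46 and MRPS11, read away from each other, had siRNA coefficients of -0.11 and 0.08 and cell line coefficients of 0.00 and -0.44.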

How the data were processed

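The authors deposited 1 value per RefSeq transcript and library, made by scaling its reads to RPKM. The unit was not stated and was deduced, since values times transcript length fall on multiples of 1 constant per library. The submitters' processing notes name CASAVA 1.8.2, TopHat2 2.0.9 and hg19, and the counter and annotation are not given in the sources used here. Libraries were made with an Illumina TruSeq RNA kit. Transcript lengths came from GENCODE 29, and promoters and gene order from RefSeq (GRCh38.p14).

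limma 3.58.1 (R 4.3.3, eBayes with trend, 1 residual and 8.29 prior degrees of freedom) was fitted to log2(RPKM + 1) of 4 libraries with terms for cell line and siRNA, over 10357 genes, with Benjamini-Hochberg adjustment over all of them. Python 3.11.15 was used for the rest. Named genes were those called, the 10 largest siRNA and 8 largest cell line coefficients, the 5 highest and 5 lowest, up to 5 with opposite signs, the MRPS18 paralogs and the top 2 of each related list. Members and lists were chosen with earlier results of these data known. PECAM1, NOA1, PDF, TEFM and MYC were not analysed here. Pseudocount, filter, scaling, trend and covariate were varied.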

Additional observations from a re-analysis of the deposited data

Results flagged for a closer look

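With CDCA8-1siRNA, 5 members moved in opposite directions in the 2 lines by the widest gaps. With 1 library per condition the difference was not tested. The directions were opposite under all 6 other settings of pseudocount, filter and scaling, which do not address counting error. The gap, Huh7 minus Huh1 of the log2 fold changes, was 0.4551 for MRPL33 (-0.07 in Huh1, 0.39 in Huh7). It was -0.3280 for MRPL40 (0.15 and -0.18), 0.3173 for MRPL34 (-0.22 and 0.10), 0.3075 for MRPL10 (-0.05 and 0.26) and -0.3048 for MRPL46 (0.04 and -0.26). In Huh1 the changes of MRPL33, MRPL10 and MRPL46 were smaller than their sampling SDs (0.0939, 0.0838 and 0.106). The change of MRPL34 in Huh7 was also smaller than its sampling SD (0.116). For MRPL40 the SDs were 0.0874 in Huh1 and 0.0405 in Huh7.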

How the results depend on the processing

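Members called lower after the siRNA were 2, and 0 without the filter, 0 without the covariate, 1 without the trend and 4 after quantile normalization. All genes called then numbered 0, 0, 710 and 1320, beside 1061. Members called higher were 0, and 1 with a minimum of 5 RPKM (MRPL36). In Huh7, members at least 25% higher were 1, and 2 with a pseudocount of 0.1 RPKM or quantile normalization. The members' median between the lines was -0.21, and -0.318 after median centring and -0.296 after upper quartile scaling. Of 31 named members under 8 alternatives, 4 of 248 siRNA values turned sign, none of them past the threshold. These were MRPS14 (-0.0241 after median centring, -0.0408 after quantile normalization) and MRPS18A (-0.0186 and -0.00692). For the cell line 4 of 248 turned, namely MRPL51 (0.0396 after quantile normalization) and MRPS18A (-0.0474 after median centring, -0.0303 after quantile normalization and -0.0254 after upper quartile scaling). The causes were not tested. Members' siRNA medians were negative in each line under every setting. The fit pairs the siRNAs within each line. No pairing by replicate number was possible because the labels carry none, and with 1 library per condition no replicate could be left out.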
